A study of Dicentrarchus labrax with 10 samples.

Results

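The 6 sequences described here are the apolipoproteins and apolipoprotein A-I binding proteins of a custom European sea bass (Dicentrarchus labrax) array: apolipoprotein AI precursor (apoA-I), apolipoprotein E (apoE), apolipoprotein B (apoB), apolipoprotein A-IV3 (apoA-IV3), apolipoprotein A-I binding protein (apoA-I BP) and a second binding protein sequence named isoform CRA_a (apoA-I BP CRA_a). They were chosen by name, with earlier results of these data known. A sequence is taken as every probe that shares 1 sequence identifier, so the 6 sequences comprised 18 of the 24200 probes and 6 of the 11705 identifiers, with 3 probes per sequence and 2 spots per probe on each array. The arrays measured gonad RNA of 10 fish at 170 days post hatch (dph), all labelled as putative females because of high levels of the aromatase gene cyp19a1a, with 5 fish each in a high temperature (HT) and a low temperature (LT) group. Both groups came from larvae held at 17 °C for the first 20 dph, after which HT fish were kept at 21 °C and LT fish at 15 °C until 60 dph, and LT water was later brought to the HT temperature. Each group was reared in 1 tank, and effects of the tank and of temperature cannot be told apart. The study left out 1 HT fish as an outlier, taken here to be HT replicate 1 from its heatmap. The comparison was therefore made over 9 fish (4 HT and 5 LT) and again over all 10.

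Apolipoproteins are the protein coat of the particles that carry lipid in blood. ApoA-I is the main protein of high density lipoprotein, apoB is the scaffold of very low and low density lipoproteins, apoE is a ligand through which cells take up lipoproteins, and apoA-IV in mammals is made mostly in the intestine during fat absorption. In fish, liver and intestine make much of the circulating apolipoprotein, and growing oocytes take up lipid from the blood. The human protein named apoA-I binding protein binds apoA-I and is also an enzyme that repairs damaged forms of NADH and NADPH.

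Median foreground per array was 95 to 234.5 in HT fish and 130 to 219.5 in LT fish. A probe counted as well above background when a share of at least 0.5 of its spots had this scanner software call. This held for 69.2% to 90.8% of probes in HT fish and 78.1% to 86.4% in LT fish. No spot was saturated. The array of HT replicate 1 had a mean correlation of 0.843 with the other arrays, against 0.920 to 0.947 for the others. Anti-Müllerian hormone (amh) is made by Sertoli cells of the testis and by ovarian granulosa cells. Its second sequence lay between 12.27 and 13.59 on the log2 scale in HT replicates 2 to 5 and in LT replicate 2. It lay between 7.25 and 9.32 in HT replicate 1 and the other 4 LT fish, so results are also given without LT replicate 2. The first amh sequence, well above background on 3 arrays, lay between 6.48 and 6.91 in all fish and did not show this split. Of the other gonad genes listed, dmrt 1 divided the fish in the same way, whereas SOX-8 and DAX2 did not. In RNA from whole tissue, fewer cells of a type and less RNA per cell cannot be told apart. Levels below are log2 intensities after background correction and quantile normalisation, and they compare fish at 1 probe, not 1 probe with another.

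Of the 6 sequences, apoA-I differed most between HT and LT fish, and it was the only one whose brightest probe had an unadjusted limma p below 0.05. This probe (CUST_8305_PI416070213, CUST_8305 below; all names end in the same suffix) had a log2 intensity of 6.69 in HT replicate 1, 7.67 in HT replicate 2, 8.04 in HT replicate 3, 9.33 in HT replicate 4 and 7.29 in HT replicate 5, against 9.81, 10.48, 8.78, 10.56 and 8.49 in LT replicates 1 to 5. HT replicates 1, 2, 3 and 5 lay below the lowest LT fish. HT replicate 4 was above LT replicates 3 and 5, so the groups overlapped through 1 HT fish and 2 LT fish. In HT replicate 1 the probe was not well above background, with spots at 67 and 62.5, whereas LT replicate 2 had 2196 and 2129 before normalisation.

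Over 9 fish the CUST_8305 mean was 8.08 ± 0.89 in HT fish and 9.62 ± 0.96 in LT fish (SD, n = 4 and 5). The difference, HT minus LT, was -1.54 (SE 0.54, 95% interval -2.77 to -0.32), a ratio of 0.343 on the linear scale. It did not pass the adjusted threshold in limma (unadjusted p = 0.0190, Benjamini-Hochberg adjusted p = 0.201 over 24200 probes), and the exact two-sided permutation test gave p = 0.0556, where the smallest possible value is 0.00794. With all 10 fish the HT mean was 7.80 ± 0.99 (SD, n = 5) and the difference -1.82 (SE 0.56, limma adjusted p = 0.576), with an exact permutation p of 0.0317, unadjusted for the 6 sequences. The size of the difference exceeded that of 99.2% of all probes over 9 fish, and so did its spread: the residual SD of 0.927 was larger than at 97.9% of probes.

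The other apoA-I probes were likewise lower in HT fish. CUST_8306 differed by -1.73 (adjusted p = 0.172) and CUST_8307 by -1.63 (adjusted p = 0.187) over 9 fish, and by -1.97 and -1.84 over 10 fish. Correlations between the 3 probes across the 10 fish were 0.993 to 0.996, a description of probes that read the same RNA. The 2 spots of CUST_8305 had an SD of 0.0889 within an array, against an SD of 0.89 between HT fish and 0.96 between LT fish over the 9 fish. The range over the 9 fish was 9.69-fold; it was 14.7-fold with HT replicate 1, where the probe was not well above background.

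Each slide carried 1 HT array and 1 LT array, always at the same positions, so array position and temperature cannot be told apart. Within slides, CUST_8305 was lower in the HT fish on 5 of 5 slides, with differences of -3.12, -2.81, -0.74, -1.23 and -1.20 for slides 1 to 5. The value of slide 1 rests on HT replicate 1, not well above background at this probe, and has no exact size; the other slides ran from -2.81 to -0.74. With the slide as a block, which leaves LT replicate 1 without a partner, the difference over 9 fish was -1.50 (limma adjusted p = 0.340). Leaving out LT replicate 2 gave -1.33 (adjusted p = 0.229) over 9 fish and -1.61 (adjusted p = 0.594) over 10 fish. Without it the 4 HT fish of the 9-fish comparison were all high at the second amh sequence and all LT fish low. The level of that sequence and temperature cannot be told apart there.

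**Figure D1:**
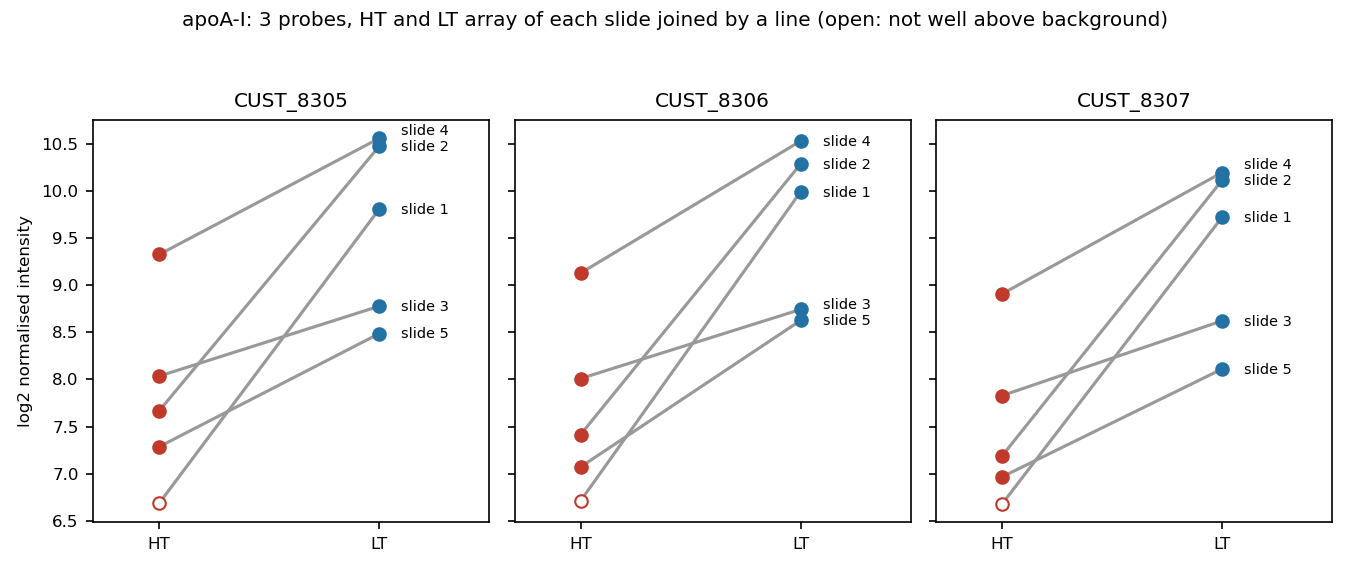
Log2 normalised intensity of the 3 apoA-I probes, HT arrays on the left and LT arrays on the right, with the 2 arrays of a slide joined by a line; open points were not well above background. At CUST_8305 every line ends higher on the LT side, and the difference, HT minus LT, runs from -2.81 (slide 2) to -0.74 (slide 3) among the slides with both arrays well above background.

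Under 22 alternative settings apoA-I was lower in HT fish, from -2.22 to -1.28. Of these, 3 changed only the test or named the same probe and could not move the difference, which leaves 19 that gave another value. Some of the 19 coincide by design. The slide block over 9 fish and leaving out LT replicate 1 both gave -1.50, and all 10 fish gave -1.82 with or without the block. The adjusted p ran from 0.0342 to 0.621, and it was below 0.05 in 1 setting, a fit over all 10 fish that weighted each array by its scatter. In that fit 3 member probes, all of apoA-I, passed the call along with 2029 probes in all, and CUST_8305 differed by -1.65. HT replicate 1 had a weight of 0.119 there and HT replicate 3 a weight of 5.93.

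**Figure D2:**
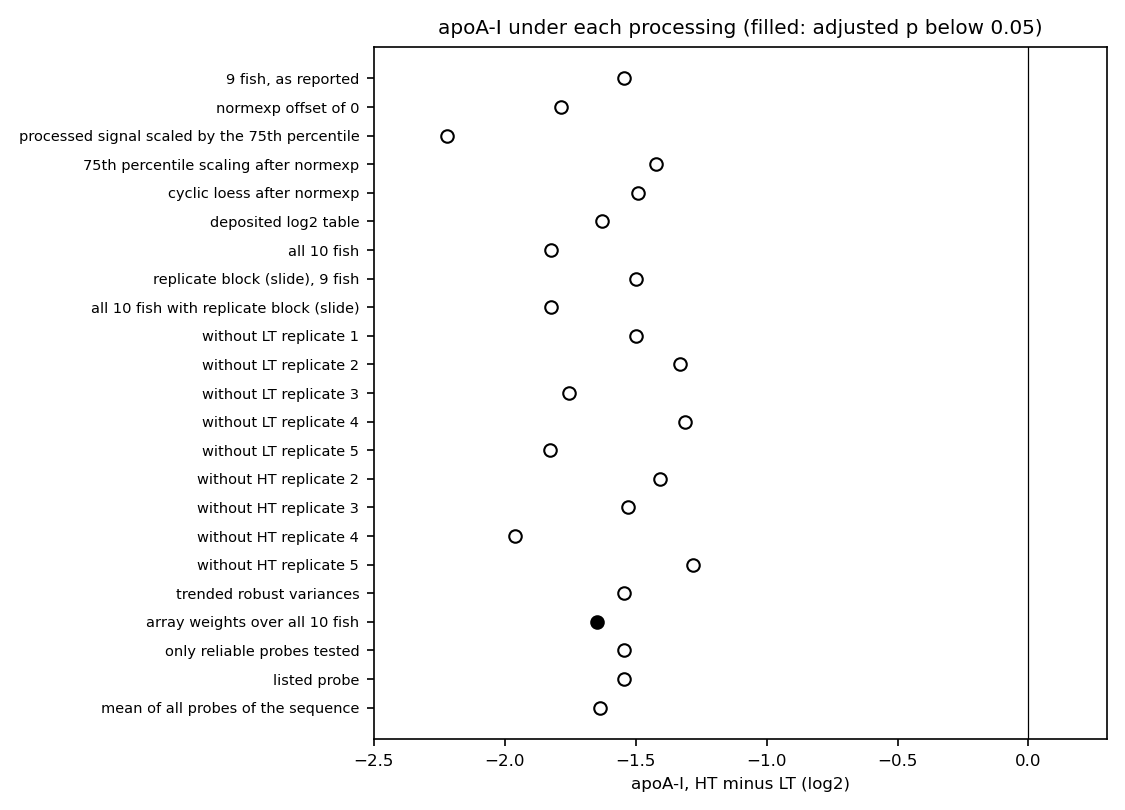
Difference in log2 intensity of apoA-I, HT minus LT, under the reported processing and each of the 22 alternatives, 1 row each; filled points have an adjusted p below 0.05. All points lie to the left of 0, and only the fit with array weights (-1.65) is filled.

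Beside the apoA-I difference, sequences listed as markers of other tissues also differed in level between fish. The study states that the gonads were dissected free of the tissue around them. The pancreas and gut list (2 elastases, carboxypeptidase A1 and 2 mucins) was lower in HT fish at 5 of 5 brightest probes with none below an adjusted p of 0.05. Of these, mucin 2 differed by -0.15 over 9 fish and by -0.02 over 10 fish. Summed linear intensities follow the brightest sequences of a list and are not the level of a tissue. For this list the sum was 688 to 907 in HT fish and 795 to 1483 in LT fish. The LT maximum came from LT replicate 2, and the next LT fish was at 1077. For liver and kidney, 2 of 3 were lower, and the sum was 1178 to 3133 in HT fish and 1685 to 13599 in LT fish. The HT maximum came from HT replicate 1 (1648 at most without it) and the LT maximum from LT replicate 3 (2772 at most without it), where phosphoenolpyruvate carboxykinase was at 13.16. Over 9 fish the limma difference was -1.28 for betaine homocysteine S-methyltransferase (unadjusted p = 0.00236, adjusted p = 0.140). It was -1.22 for phosphoenolpyruvate carboxykinase (unadjusted p = 0.317, adjusted p = 0.598) and 0.68 for glycine dehydrogenase (unadjusted p = 0.0381, adjusted p = 0.249). Betaine homocysteine S-methyltransferase was at 9.56 to 9.94 in these HT fish and 10.23 to 11.99 in LT fish, without overlap. Over all probes 2.91% had every HT fish below every LT fish. HT replicate 1 was at 11.46, and the difference over 10 fish was -0.93. The single adipose sequence ranged from 441 to 2042 in HT fish, 1015 at most without HT replicate 1, and from 432 to 1549 in LT fish, with a difference of -0.25 over 9 fish and 0.10 over 10 fish. In these lists 4 of 5, 2 of 3 and 1 of 1 were well above background on all arrays. Muscle sequences had a higher mean in HT fish at 3 of 3, and 0 of 3 were well above background on all arrays. Their sums were 339 to 1045 in HT fish and 305 to 653 in LT fish, with the maxima in HT replicate 4 and LT replicate 2. Myosin light chain 1 differed by 0.18 over 9 fish (limma adjusted p = 0.869), and its higher HT mean rested on HT replicate 4 at 8.96. The other HT fish had 6.55 to 6.92, against 6.66 to 7.55 in LT fish. Over 9 fish, skeletal muscle myosin heavy chain, well above background on 4 arrays only, differed by 0.32 (limma unadjusted p = 0.00982, adjusted p = 0.175). It was at 6.71 to 7.00 in HT replicates 2 to 5 and at 6.75 in LT replicate 2, against 6.61 in HT replicate 1 and 6.45 to 6.53 in the other LT fish. Slow myosin heavy chain 3, well above background on 9 arrays, differed by 1.96 (limma unadjusted p = 0.000598, adjusted p = 0.109). It was at 8.72 to 9.31 in HT replicates 2 to 5 and at 8.58 in LT replicate 2. The other LT fish had 6.52 to 6.86 and HT replicate 1 had 7.10, which is the split of fish seen for the second amh sequence. Skeletal muscle myosin heavy chain split the fish in the same way, by a narrow margin. Whether the samples held RNA of these tissues, and its part in the apoA-I difference, was not tested.

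ApoE had high signal in 9 of the 10 fish and did not separate HT from LT fish. The brightest probe, CUST_2279, had 8.19 in HT replicate 1, and 11.63, 12.77, 11.89 and 11.77 in HT replicates 2 to 5, against 12.67, 11.96, 11.72, 11.66 and 12.93 in LT replicates 1 to 5. Apart from HT replicate 1 the groups overlapped almost fully, within a 2.47-fold range. Means over 9 fish were 12.02 ± 0.51 in HT fish and 12.19 ± 0.58 in LT fish (SD, n = 4 and 5), a difference of -0.17 (SE 0.33, 95% interval -0.91 to 0.57, limma adjusted p = 0.811). The exact permutation test gave p = 0.714.

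HT replicate 1 stood far below the rest at all 3 apoE probes. Its 6 apoE spots read 236 to 310 before normalisation, still well above background, whereas the 54 spots of the other 9 fish read 1222 to 8936. At CUST_2279 the next lowest HT fish, replicate 2, was 10.9-fold higher. With this fish included the difference was -0.94 (SE 0.75, adjusted p = 0.873), so the value over 10 fish rests on 1 array. The same fish had apoA-I BP CRA_a at 9.76, inside the range of the other fish.

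**Figure D3:**
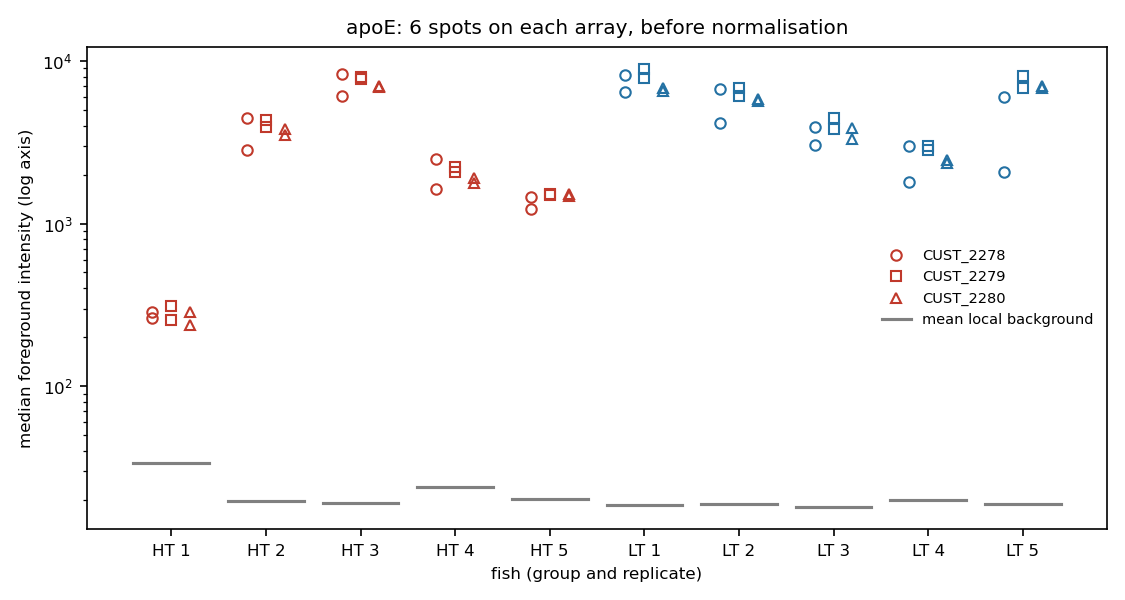
Median foreground intensity before normalisation of the 6 apoE spots in each fish, HT fish left of LT fish, on a log axis; symbols are the 3 probes and grey bars the mean local background. HT replicate 1 lies at 236 to 310 and no spot of another fish is below 1222.

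ApoB was dim in the gonad: 19 of its 30 values, 3 probes on 10 arrays, were well above background, and CUST_2027 was so on 2 arrays only. At the brightest probe, CUST_2026_PI416070213, HT replicates 1 to 5 had 6.69, 7.12, 6.94, 7.75 and 7.59, against 6.99, 7.13, 6.79, 6.97 and 7.25 in LT replicates 1 to 5. HT replicates 4 and 5 lay above all LT fish, and HT replicate 1, not well above background, lay below them. Over 9 fish HT was higher by 0.33 (SE 0.18, limma adjusted p = 0.353; exact permutation p = 0.159), and over 10 fish by 0.19 (adjusted p = 0.926). CUST_2028 was also higher in HT fish, by 0.12 over 9 fish and 0.02 over 10 fish. CUST_2027 differed by -0.01 over 9 fish, but a probe well above background on 2 arrays only can show little.

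ApoA-IV3 was dim, though 29 of its 30 values were well above background, and did not differ detectably. Its brightest probe, CUST_14612, had 6.81, 6.89, 7.04, 6.94 and 7.37 in HT replicates 1 to 5, against 7.93, 7.01, 6.72, 7.10 and 6.89 in LT replicates 1 to 5. LT replicate 1 was the highest fish, and its 2 spots disagreed, at 114 and 572 before normalisation. The difference over 9 fish was -0.07 (SE 0.23, 95% interval -0.59 to 0.45, limma adjusted p = 0.896), and it was 0.10 with the brighter of these spots left out and 0.13 without LT replicate 1. The other probes gave 0.01 and -0.09.

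The apoA-I BP sequence (listed probe CUST_11722_PI416070213) gave weak signal, with 24 of 30 values well above background. CUST_11723, the brightest probe, had 7.01, 6.99, 7.27, 6.65 and 7.02 in HT replicates 1 to 5, against 6.99, 7.08, 6.71, 7.10 and 7.09 in LT replicates 1 to 5. HT replicates 3 and 4 were the highest and lowest fish of all, and the difference over 9 fish was -0.01 (SE 0.14, 95% interval -0.32 to 0.30, limma adjusted p = 0.977). CUST_11722 differed by -0.26 (unadjusted p = 0.0454, adjusted p = 0.262; exact permutation p = 0.0556) over 9 fish. This probe was not well above background in HT replicates 1, 4 and 5, so the size of its difference is uncertain, and HT replicate 5 was above LT replicates 1 and 3. CUST_11724 differed by -0.07.

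ApoA-I BP CRA_a was bright and, by brightest probe, had the narrowest range of the 6 sequences across fish. Its brightest probe, CUST_4721, had 9.76, 10.23, 10.14, 9.68 and 10.18 in HT replicates 1 to 5, against 9.85, 9.93, 9.76, 9.68 and 9.97 in LT replicates 1 to 5, a range of 1.47-fold. HT replicates 2, 3 and 5 lay above every LT fish, and HT replicate 4 was level with the lowest LT fish. The mean over 9 fish was 10.06 ± 0.26 in HT fish and 9.84 ± 0.12 in LT fish (SD, n = 4 and 5), a difference of 0.22 (SE 0.13, 95% interval -0.07 to 0.51, limma adjusted p = 0.387; exact permutation p = 0.119). CUST_4720 and CUST_4722 differed by 0.19 and 0.23. This direction flipped to -0.13 and -0.28 when the arrays were scaled by their 75th percentile, on processed and on background-corrected signals, and the value was taken relative to the median of all probes, which itself moved by 0.30 and 0.40.

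**Figure D4:**
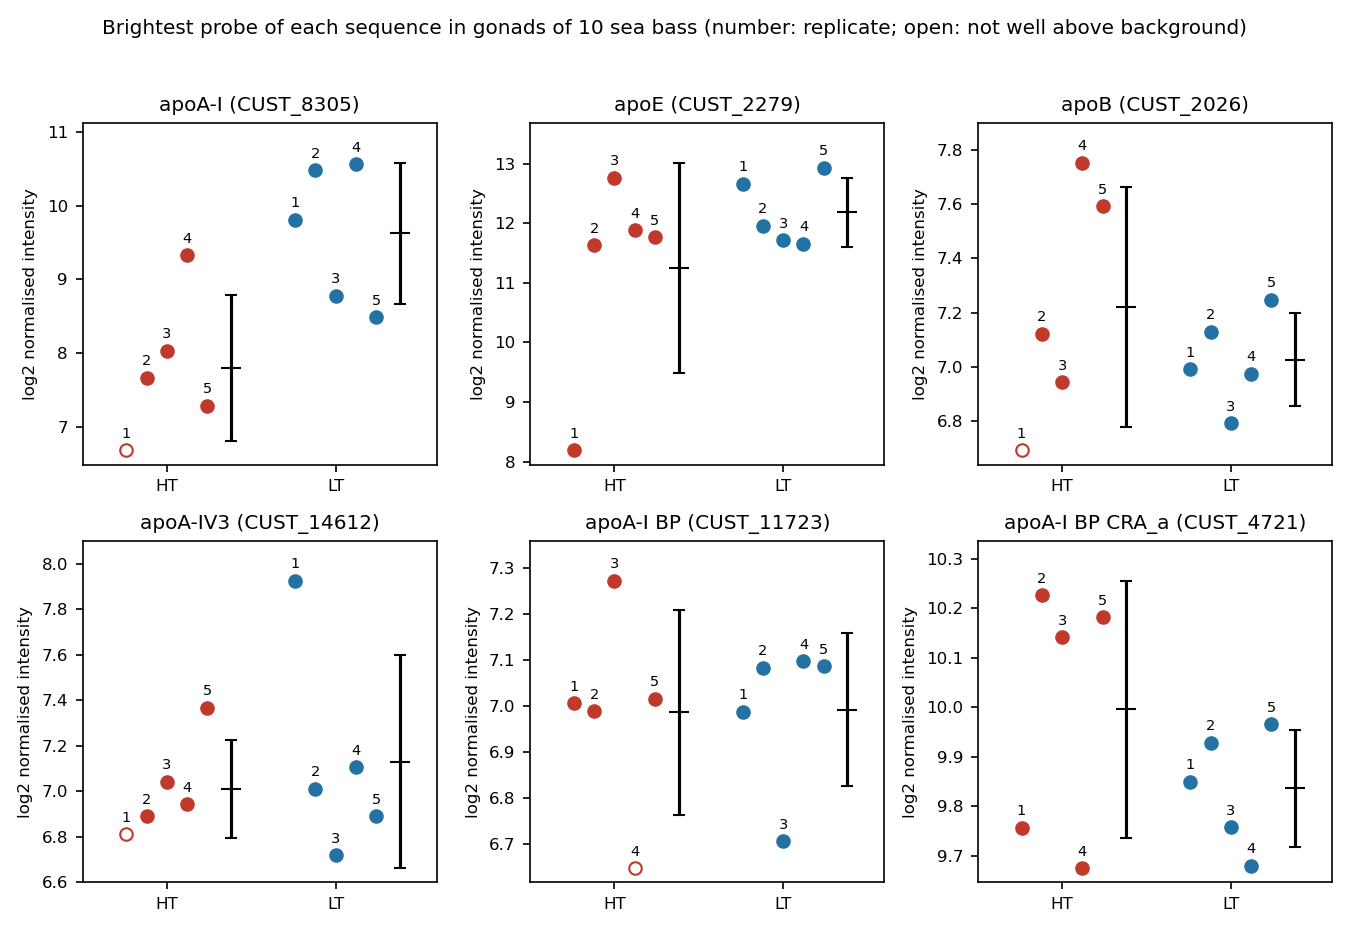
Log2 normalised intensity of the brightest probe of each sequence in the 5 HT fish (left, red) and the 5 LT fish (right, blue); numbers are replicates, open points were not well above background, and bars are the mean ± SD of 5 fish. Only apoA-I shows most HT fish below all LT fish, and at apoE the HT replicate 1 fish is alone at 8.19.

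Over the whole group, 0 of 18 probes passed the call (adjusted p below 0.05, fold above 1.2, reliable in all fish) over 9 or over 10 fish, and over the array 0 of 24200 probes (0%) did so in either comparison. The study reported differentially expressed genes at these thresholds, so the count over the array differs from its own. The lowest adjusted p of the members was 0.172 over 9 fish and 0.546 over 10, against 0.0724 and 0.374 over all probes. An unadjusted p below 0.05 was found at 4 of 18 probes, all lower in HT fish, where 7.61% of all probes were so over 9 fish and 2.96% over 10 fish. Of these, 3 probes read apoA-I and 1 read apoA-I BP. By brightest probe, 4 sequences were lower and 2 higher in HT fish, with a median difference of -0.04 against 0.00 over all probes, and 11 of 18 probes were lower over 9 fish and 13 over 10 fish, where 49.6% and 48.2% of all probes were lower. No member probe had HT and LT fish that did not overlap, whereas 2.91% of all probes had every HT fish below every LT fish and 3.85% every HT fish above, over 9 fish (0.764% and 1.06% over 10 fish).

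**Figure D5:**
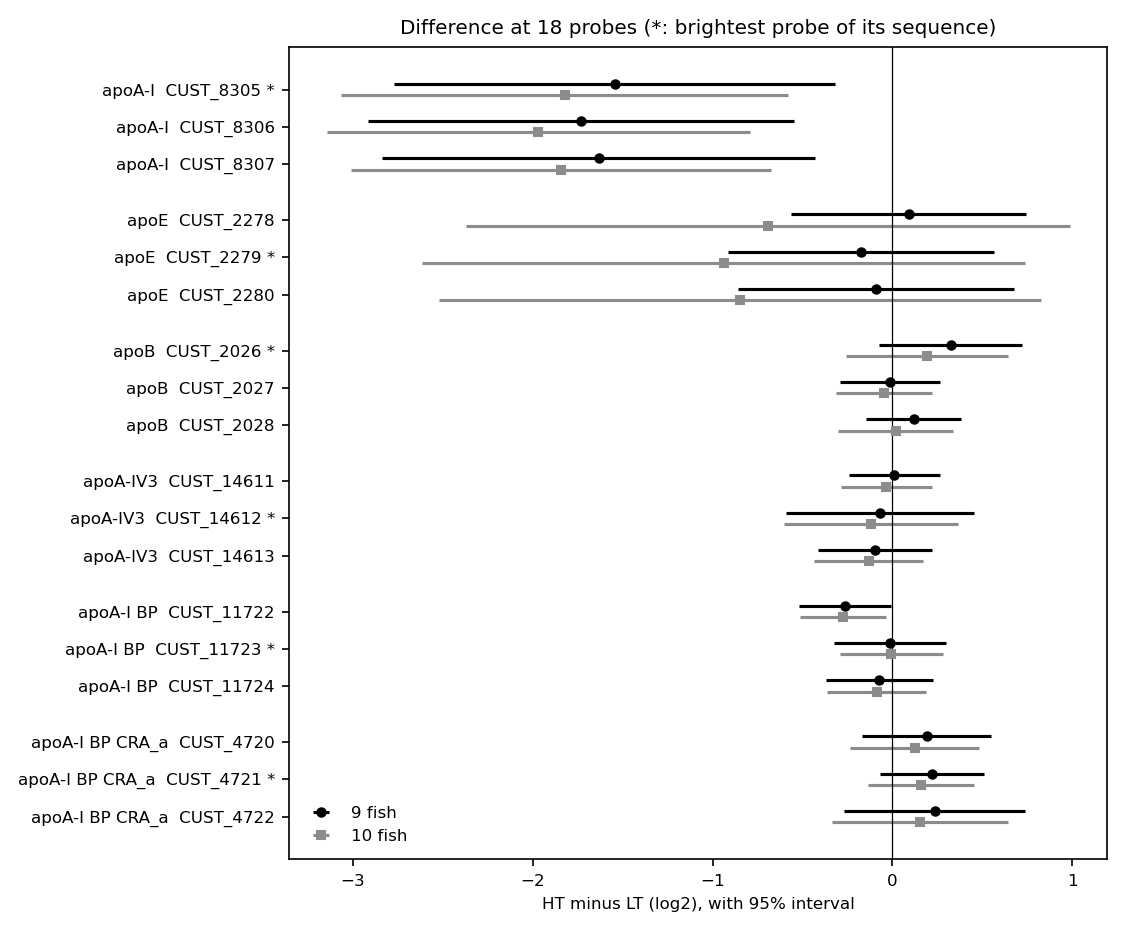
Difference in log2 intensity, HT minus LT, with its 95% interval, at the 18 probes over 9 fish (black circles) and 10 fish (grey squares); a star marks the brightest probe of a sequence. The 3 apoA-I intervals lie below 0 in both, and so do those of CUST_11722, whose upper end over 9 fish is at -0.01.

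The members did not vary together across fish to a degree that passed correction. Among the 15 pairs of brightest probes over 10 fish, the lowest Benjamini-Hochberg adjusted permutation p of Pearson's r was 0.800. Over 9 fish, apoA-I and apoA-I BP CRA_a had r = -0.77 (exact permutation p = 0.0205, adjusted 0.308) and Spearman's rho = -0.78 (exact permutation p = 0.0172, adjusted 0.258), and r was -0.86 without the 2 fish farthest from the apoA-I median. On deviations from the group means r was -0.64 over these 9 fish (permutation p = 0.0535, adjusted 0.435), and -0.33 without the 2 farthest fish. Over all 10 fish r was -0.48 (permutation p = 0.160), and -0.29 (permutation p = 0.402) on deviations. The permutations of deviations moved values across both groups and did not account for the group means removed, so these p-values are approximate. The value of -0.77 pools HT and LT fish whose means lie in opposite directions for these sequences. No correlation is defined within a slide of 2 arrays, and the 5 differences between arrays of a slide were too few to correlate.

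A further 5 sequences of lipid metabolism were named in the study's probe table. Of these, 3 were lower and 2 higher in HT fish, none with an adjusted p below 0.05, and the median difference was -0.27 over 9 fish. Delta-9-desaturase 1, which makes monounsaturated fatty acids, had 7.63, 7.86, 7.95, 7.59 and 7.80 in HT replicates 1 to 5, against 8.61, 8.50, 8.42, 7.85 and 8.19 in LT replicates 1 to 5. LT replicate 4 alone lay within the HT range, and the difference was -0.51 (SE 0.16, limma unadjusted p = 0.00999, adjusted p = 0.175) over 9 fish and -0.55 (adjusted p = 0.546) over 10 fish. Lecithin cholesterol acyltransferase, which esterifies cholesterol on high density lipoprotein, differed by -0.34 (adjusted p = 0.35) over 9 fish and -0.19 over 10 fish, and acetyl-CoA acetyltransferase 2 by -0.27 (adjusted p = 0.511) over 9 fish and 0.12 over 10 fish. HMG-CoA reductase, the rate-limiting enzyme of cholesterol synthesis, differed by 0.05 (adjusted p = 0.914) over 9 fish and 0.10 over 10 fish, and the RNA-binding high density lipoprotein binding protein by 0.01 (adjusted p = 0.995) and -0.38. High density lipoprotein binding protein was at 8.73 in HT replicate 1, below 9.72 to 11.13 in the other HT fish and 10.49 to 11.02 in LT fish, in the fish where apoE was lowest.

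Among the 170 other named sequences of that table, those whose brightest probe followed each member most closely over the 10 fish are given as a description. For apoA-I these were cofilin 2 (Pearson's r = 0.72) and carboxypeptidase A1 (r = 0.72), with r = 0.58 and 0.68 over 9 fish. For apoE they were galectin (r = 0.95) and dazap2-like protein (r = 0.94), but r was 0.59 and 0.38 over 9 fish, so the likeness over 10 fish rested on HT replicate 1, the lowest fish for both. Alpha tubulin (r = 0.82) and profilin I (r = 0.66) were closest to apoB, with r = 0.76 and 0.71 over 9 fish. A UDP-N-acetylglucosamine transferase subunit (r = 0.84) and glycine dehydrogenase (r = 0.79) were closest to apoA-I BP CRA_a, with r = 0.83 and 0.77 over 9 fish. ApoA-IV3 was closest to translation initiation factor eIF-2B (r = 0.68) and high-mobility group protein 2-like 1 (r = 0.61), with r = 0.69 and 0.87 over 9 fish. The eIF-2B probe was dim and ran only from 6.505 to 6.656 across the 10 fish, and Spearman's rho for high-mobility group protein 2-like 1 was 0.39. ApoA-I BP was closest to beta-catenin (r = 0.59) and muc2 protein (r = 0.58), with r = 0.62 and 0.59 over 9 fish. All points share the normalisation, and the HT and LT fish are pooled in these values.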

How the data were processed

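Gonad RNA of 5 HT and 5 LT fish was measured with 1 Cy3-labelled custom Agilent array per fish. The authors deposited scanner files with foreground, background and processed intensity per spot, extracted with Feature Extraction 10.7.3.1 per the file headers, and a table of normalised log2 values, used as an alternative. Median signals were corrected with normexp (offset 50), control spots removed, the 10 arrays quantile normalised and unflagged spots averaged per probe. Tests used limma 3.58.1 (R 4.3.3) with Benjamini-Hochberg adjustment over 24200 probes, and exact permutation (Python 3.11.15) for single probes. A reliable probe had a share of at least 0.5 of its spots above 2 times background. The brightest probe by mean over 9 fish stands for a sequence. HT replicate 1 was taken as the excluded fish from the paper's heatmap. The fitting step was tested on simulated data. Slides pair an HT and an LT array per the file headers; deviations from group means correlated at -0.23 to 0.49 within slides. Members, gene lists and rules were chosen with earlier results of these data known. Fish are separate animals, but 1 tank per group means that p-values measure spread between fish only. Probe sequences were not used here. The precision is limited by the number of arrays. Exact p-values of single probes are unadjusted, and permutation p-values of member pairs were also adjusted over the pairs.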

Additional observations from a re-analysis of the deposited data

Results flagged for a closer look

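Within groups of 5 fish, the gap between an extreme fish and its nearest neighbour was divided by the range of the group and compared with Dixon's critical value of 0.71. The 3 probes of a sequence are not separate trials. The share of all probes past this value was not computed, so the count below is not a result about the members. By chance about 1 in 20 groups would pass this value. Of 46 groups tested, from 18 member probes and 5 lipid sequences in HT and LT fish, 8 exceeded it. Of these, 3 were the apoE probes, which read 1 transcript: HT replicate 1 was the lowest HT fish with a ratio of 0.742 at CUST_2280, 0.743 at CUST_2278 and 0.751 at CUST_2279, 10.4-fold, 11.1-fold and 10.9-fold below the next fish. The same fish was the highest HT fish for acetyl-CoA acetyltransferase 2 (ratio 0.898, 9.24 against 7.36 in the next fish) and for lecithin cholesterol acyltransferase (ratio 0.787, 7.38 against 6.74). The other gaps were small: apoB CUST_2027 in HT replicate 5 was 1.31-fold above the next HT fish (0.724), apoB CUST_2028 in LT replicate 3 was 1.27-fold below the next LT fish (0.74), and apoA-I BP CUST_11723 in LT replicate 3 was 1.22-fold below (0.719). HT replicate 1 is the fish left out of the 9-fish comparison, and its array had the lowest mean correlation with the other arrays (0.843).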

How the results depend on the processing

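ApoA-I, apoB and apoA-I BP CRA_a had the same sign in 22 alternatives each (-2.22 to -1.28, 0.03 to 1.14 and 0.12 to 0.35), but relative to the median of all probes apoA-I BP CRA_a turned to -0.13 and -0.28 under the 75th percentile scalings. No member probe passed the call except under array weights over 10 fish, where 3 apoA-I probes did (apoA-I -1.65, adjusted p = 0.0342); that fit gives most weight to HT replicate 3. Signs changed for apoA-IV3, apoA-I BP and apoE, whose adjusted p stayed above 0.05 in every setting. Processed signals scaled by the 75th percentile gave 0.44 for apoA-IV3 and 0.43 for apoA-I BP, and the same scaling after normexp gave 0.47 and 0.62, while the median of all probes moved to 0.30 and 0.40. ApoA-I BP was also 0.016 with cyclic loess, 0.14 with array weights, and -0.11 to 0.10 when 1 fish was left out. ApoA-IV3 was 0.13 with the replicate block (slide), 0.010 at the listed probe, 0.10 with 1 spot left out, and -0.17 to 0.13 when 1 fish was left out (0.13 without LT replicate 1). ApoE was 0.091 at the listed probe, and -0.42 to 0.013 when 1 fish was left out (0.013 without LT replicate 5). The spot and the deviations from group means were added after seeing the data. Calls over all probes were 0 with 9 fish, 2445 and 1747 with the 75th percentile scalings, 2029 with array weights and 710 without LT replicate 2. Of the 15 pairs of members, 0 passed correction over 10 or 9 fish and on deviations from group means. After 75th percentile scaling 1 pair passed by Pearson's r (apoB with apoA-I BP, r = 0.86, adjusted permutation p = 0.0111). The same pair did not pass by Spearman's rho (0.84, adjusted permutation p = 0.0555). The replicate block (slide) called no member, with 0 of 18; apoA-I had an adjusted p of 0.340 over 9 and 0.621 over 10 fish, and deviations did not correlate within every slide. ApoB and apoA-I BP were not well above background at 11 and 6 of 30 values, which limits what their probes can show.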
